A study of Homo sapiens with 5 samples.

Results

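The small heat shock genes described here are HSPB1, HSPB2, HSPB3, HSPB6, HSPB7, HSPB8 and CRYAB. They were taken as every probe whose symbol in the array's platform annotation is one of these names, which gave 7 probes, 1 for each of the 7 genes, of 20041 named genes on the array. The RNA came from differentiating cultures of H1, an established line of human embryonic stem cells. All 5 cultures grew on matrigel and received CHIR99021, a GSK3 inhibitor that turns on canonical WNT signaling, to induce mesoderm. The control then stayed in basal medium. The 4 treated cultures received from day 2 to day 5 either IWP2, which stops WNT proteins from being secreted, or LY294002, which inhibits PI3 kinase, or insulin, which activates that kinase, or IWP2 and LY294002 together. All were harvested on day 10, and each condition has 1 array of biotin-labelled RNA from 1 cell line. There are no replicates, so no difference below was tested and none has a p-value. Each is a difference between 2 arrays, and neighbouring values in an order of levels cannot be set against any spread. Between 13173 and 14723 of 47299 probes were detected per array (detection p under 0.01), and the LY294002 array was the dimmest.

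Small heat shock proteins are chaperones that work without ATP. They share an alpha-crystallin domain, form oligomers, and hold unfolding proteins until the HSP70 system refolds them or autophagy removes them. Several are made at high levels in heart and skeletal muscle, where they bind actin filaments, titin, desmin and filamin, and some are also induced by stress through the heat shock factor HSF1. HSPB7, also called cardiovascular heat shock protein, HSPB3 and HSPB2 are largely restricted to muscle, and HSPB2 and HSPB3 form a complex with each other. CRYAB (alphaB-crystallin) is abundant in lens and heart, HSPB6 (HSP20) in all types of muscle, HSPB8 (HSP22) works with the cochaperone BAG3, and HSPB1 (HSP27) is made in most tissues.

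Upstream sequence was available for 5 of the 7 genes in the RefSeq promoter table (GRCh38.p14). The 250 bases before the transcription start are shown, 5′ to 3′, for HSPB7 and HSPB3, the genes with the largest differences detected on both arrays, and for HSPB1, the brightest probe and one of the least variable. They lie at chr1:16018044-16018293 on the minus strand, chr5:54455449-54455698 on the plus strand and chr7:76302423-76302672 on the plus strand. Capitals mark matches to a pair of heat shock element units (GAANNTTC or TTCNNGAA) and to the site of MEF2, a muscle transcription factor. Both strands were searched.
HSPB7: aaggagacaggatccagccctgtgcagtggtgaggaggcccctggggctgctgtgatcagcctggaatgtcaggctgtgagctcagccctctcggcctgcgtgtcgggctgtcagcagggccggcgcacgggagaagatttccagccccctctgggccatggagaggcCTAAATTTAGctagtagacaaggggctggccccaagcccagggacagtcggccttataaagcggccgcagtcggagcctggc
HSPB3: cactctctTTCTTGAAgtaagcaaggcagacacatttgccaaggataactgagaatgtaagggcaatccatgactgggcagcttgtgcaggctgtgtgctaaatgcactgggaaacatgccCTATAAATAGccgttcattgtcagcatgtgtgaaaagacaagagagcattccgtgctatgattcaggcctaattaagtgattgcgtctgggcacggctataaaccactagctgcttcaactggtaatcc
HSPB1: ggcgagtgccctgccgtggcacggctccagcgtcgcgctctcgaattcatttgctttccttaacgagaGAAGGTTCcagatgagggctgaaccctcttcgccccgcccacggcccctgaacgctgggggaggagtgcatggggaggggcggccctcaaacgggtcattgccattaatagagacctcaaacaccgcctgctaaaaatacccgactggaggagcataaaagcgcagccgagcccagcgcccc

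The HSPB7 window held 1 MEF2 match (bases -82 to -73 from the start) and no heat shock pair. The HSPB3 window held a MEF2 match at -129 to -120, which overlaps a TATAAA, and a heat shock pair at -242 to -235. HSPB1 had a heat shock pair at -182 to -175 and no MEF2 match. HSPB8 had the pair GAATATTC at -88 to -81, and HSPB6 had 2 pairs, at -210 to -203 and -196 to -189. Over the 35116 windows of the table, 2.8% held a MEF2 match and 11.6% held either heat shock pair. TATAAA stood close to the start in HSPB3 (-32 to -27), HSPB6 (-29 to -24) and HSPB7 (-28 to -23), against 10.7% of windows with that sequence anywhere. A match describes the letters only and shows no binding.

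HSPB7 was among the genes that differed most between arrays. Its raw intensity was 326 on the control array, 1811 with IWP2, 1368 with LY294002, 212 with insulin and 1663 with both inhibitors. After background correction and quantile normalization the log2 intensities were 7.84, 10.72, 10.74, 6.59 and 10.51 in the same order, and the probe was detected on all 5 arrays. The 3 inhibitor arrays lay within 0.23 of each other, far above the control, and insulin lay below it. The highest and lowest arrays were 17.8-fold apart.

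HSPB3, the partner of HSPB2 in muscle, also differed widely between arrays. Its log2 intensity was 5.96 in the control, 8.58 with IWP2, 8.38 with LY294002, 5.16 with insulin, where it was not detected, and 9.52 with both inhibitors. The array of both inhibitors was the highest, and the lowest detected signal on the insulin array was 5.33, above the HSPB3 value there.

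HSPB2, first found as a binding protein of the myotonic dystrophy kinase, was detected on the 3 inhibitor arrays and on neither of the others. Its log2 intensity was 6.88 with IWP2, 8.20 with LY294002 and 7.81 with both inhibitors, against 4.92 in the control and 4.56 with insulin, where it was not detected. LY294002 gave the highest value, unlike HSPB3, for which the array of both inhibitors did. Undetected signal does not show that a transcript was absent.

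CRYAB, which binds desmin and titin in heart muscle, read 7.50 in the control, 8.69 with IWP2, 8.37 with LY294002, 6.73 with insulin and 7.93 with both inhibitors on the log2 scale. Here IWP2 alone was highest, and the array of both inhibitors lay below each single inhibitor. The extremes were 3.87-fold apart.

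HSPB8, the BAG3 partner, had another order of arrays. After normalization it read 6.45 in the control, the lowest of the 5 arrays, 7.75 with IWP2, 6.89 with LY294002, 7.30 with insulin and 7.44 with both inhibitors. It was the only one of the 7 genes whose insulin value lay above the control.

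HSPB1 gave the brightest signal of the family and varied by 1.79-fold in all. Its log2 intensity was 12.18 in the control, 12.69 with IWP2, 12.74 with LY294002, 12.09 with insulin and 12.93 with both inhibitors. Probes differ in how strongly they bind, so this brightness does not order HSPB1 against the others. HSPB6, which protects heart muscle when phosphorylated by protein kinase A, stayed near the limit of detection: it read 5.54 with IWP2 and 5.57 with LY294002, where it was detected, and 5.24, 5.15 and 5.00 in the control, with insulin and with both inhibitors, where it was not.

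**Figure D1:**
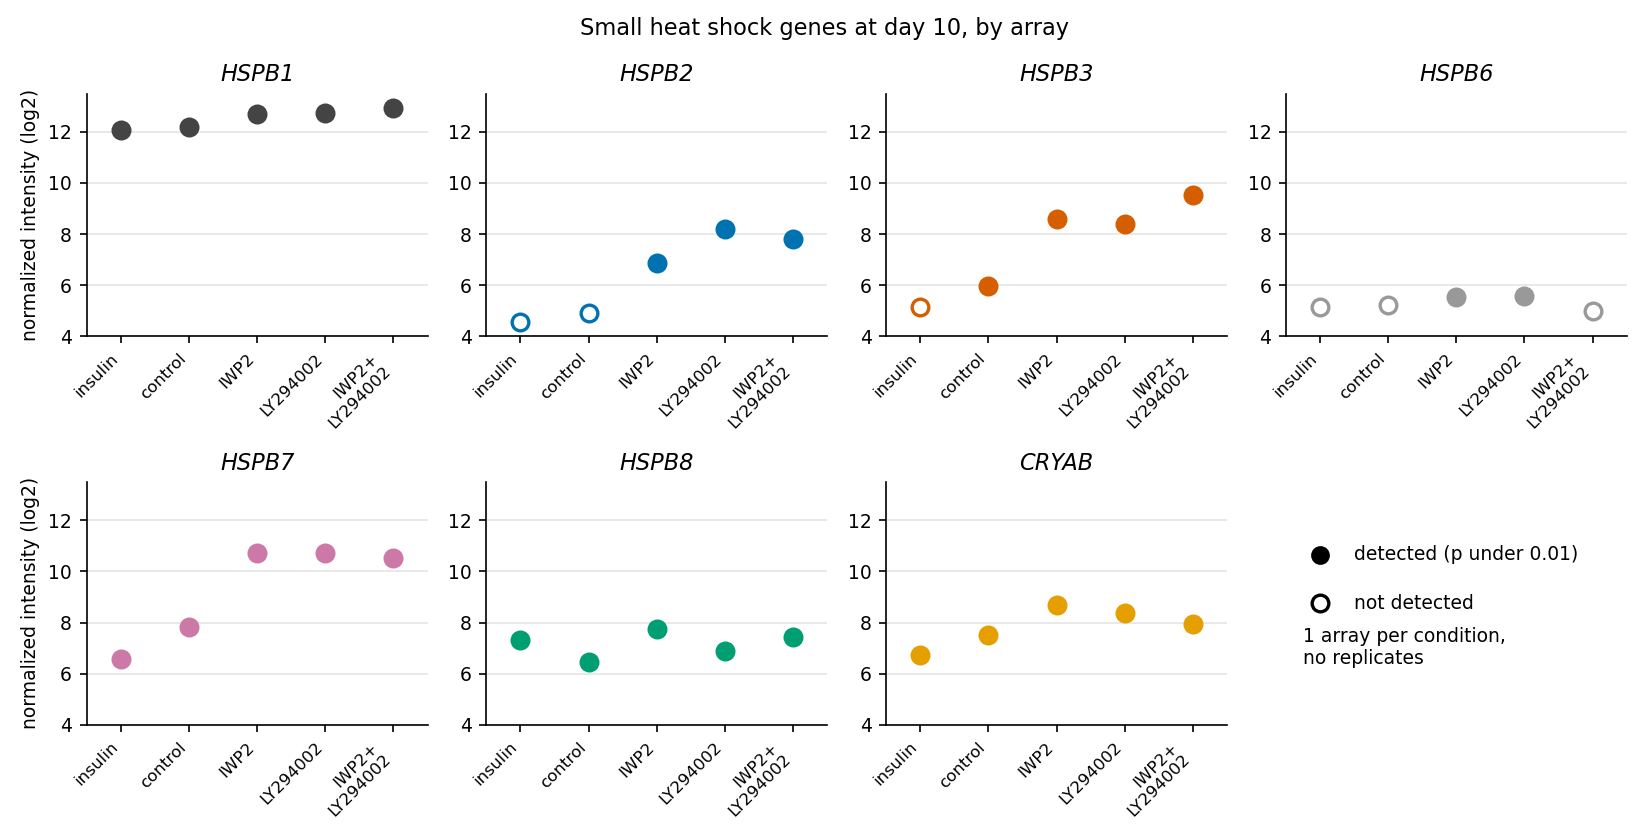
Normalized log2 intensity of each small heat shock gene (vertical axis, 1 panel per gene) on the 5 arrays (horizontal axis), 1 point per array, filled where detected and open where not. HSPB7, HSPB3 and HSPB2 stand higher on the 3 inhibitor arrays than on the control and insulin arrays, HSPB1 stays between 12.09 and 12.93, and HSPB8 is lowest in the control (6.45).

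With IWP2, all 7 genes had a positive difference from the control. A gene was counted as at least 2-fold higher where both arrays detected it and the log2 difference was 1 or more. By that rule 4 of the 5 genes detected on both arrays were higher and 0 lower, where 6.94% of the 8414 genes detected on both arrays were higher and 7.7% lower. HSPB7 was higher by 2.88 on the log2 scale (7.36-fold, the 20th largest positive difference of the array) and HSPB3 by 2.62 (6.15-fold, the 28th). HSPB8 was higher by 1.30 (2.47-fold) and CRYAB by 1.19 (2.28-fold), and HSPB1 differed by 0.51. HSPB2 and HSPB6 were detected only with IWP2, as were 9.5% of the 10267 genes detected on at least 1 of the 2 arrays. For such a gene only a lower limit of the fold can be given, taken against the weakest detected signal of the other array, or against the gene's own signal there where that was higher. By this limit HSPB2 was at least 2.94-fold higher, and HSPB6 at least 1.17-fold. The median difference of the 7 genes was 1.30 (0.78 without background correction), against 0.01 for those 10267 genes. Without background correction HSPB8 (0.77) and CRYAB (0.88) fell short of 2-fold, HSPB3 differed by 1.61, and HSPB2 by 0.78, which is under the limit given for it. The limits for genes detected on 1 array thus hold for the background-corrected values only.

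With LY294002, HSPB7 and HSPB3 again stood far above the control, and CRYAB and HSPB8 did not pass 2-fold. Of the 5 genes detected on both arrays 2 were higher and 0 lower (all genes: 9.02% higher and 10.2% lower). HSPB7 was higher by 2.90 (7.45-fold, the 19th of 7793 genes) and HSPB3 by 2.42 (5.37-fold, the 43rd). CRYAB differed by 0.87, HSPB1 by 0.56 and HSPB8 by 0.44. HSPB2 and HSPB6 were detected only with LY294002 (all genes: 6.53%), HSPB2 at least 7.37-fold higher and HSPB6 at least 1.19-fold. The median of the 7 genes was 0.87 (0.63 without background correction), against -0.07 over 9941 genes. Without background correction HSPB2 differed by 1.66 and HSPB6 by 0.11, each under its limit, and HSPB3 by 1.45. The raw intensity of HSPB6 was 122 with LY294002 and 131 in the control.

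With both inhibitors HSPB3 led, higher by 3.56 (11.8-fold, the 10th of 7858 genes), followed by HSPB7 at 2.67 (6.37-fold, the 39th). HSPB2, detected only with both inhibitors (all genes: 7.7%), was at least 5.63-fold higher. HSPB8, with a difference of 0.99 (1.99-fold), lay just under the 2-fold threshold, HSPB1 differed by 0.75 and CRYAB by 0.44. Thus 2 of the 5 genes detected on both arrays were higher and 0 lower (all genes: 12.0% higher and 10.9% lower). HSPB6 was detected on neither array. The median over the 6 genes detected on at least 1 of the 2 arrays was 1.83, against -0.02 over 10067 genes, and it was 0.99 when HSPB6 was counted. Without background correction HSPB2 differed by 1.37, under its limit, and HSPB3 by 2.41.

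HSPB7 was 2.38-fold lower with insulin (log2 difference -1.25, the 50th most negative of 8680 genes), and it was the only gene of the 4 detected on both arrays past 2-fold in either direction (all genes: 1.71% higher and 1.88% lower). CRYAB differed by -0.76, HSPB1 by -0.09 and HSPB8 by 0.85. HSPB3 was detected only in the control (all genes: 6.18%), at least 1.55-fold higher there than with insulin, and HSPB2 and HSPB6 were detected on neither array. The median of the 5 genes detected on at least 1 array was -0.76, against -0.00 over 9896 genes. Without background correction the HSPB7 difference was -0.76, short of 2-fold, and the median of the 5 genes was -0.27. The 4 comparisons share 1 control array, and their values are not independent of each other.

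**Figure D2:**
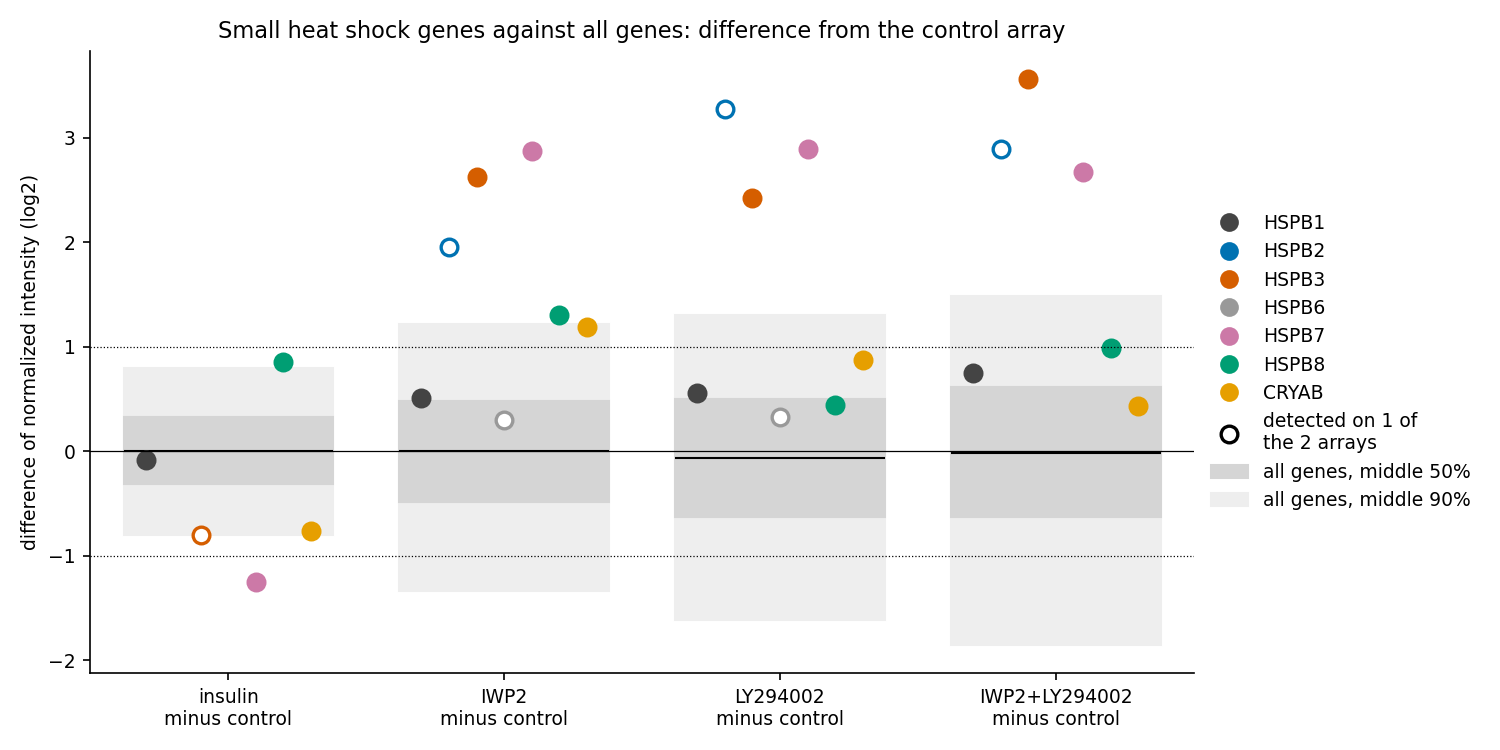
Log2 difference from the control array (vertical axis) of each small heat shock gene under the 4 treatments (horizontal axis), over boxes of the middle 50% and 90% of all genes detected on at least 1 of the 2 arrays, with their median as a line. Open points were detected on 1 of the 2 arrays, genes detected on neither are left out, and dotted lines mark 2-fold. HSPB7, HSPB3 and HSPB2 lie above the 90% box on each inhibitor array, and HSPB8 lies above it with IWP2 (1.30). With insulin HSPB7 lies below the box (-1.25) and HSPB8 above it (0.85).

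Markers of heart muscle moved with these genes. Of 18 measured cardiomyocyte markers, among them MYH6, MYL3, PLN and CKM, 13 were detected on the control array, 16 with IWP2, 15 with LY294002, 10 with insulin and 15 with both inhibitors. Their summed normalized intensity was 18953, 65220, 60005, 10308 and 65414 in that order. The median difference of the detected markers from the control was 2.24 with IWP2, 2.12 with LY294002, -1.04 with insulin and 2.51 with both, beside 1.30, 0.87, -0.76 and 1.83 for the small heat shock genes. MYL2 and TNNI1 were not detected on any array, and SLN differed by -2.62 with IWP2 and was undetected with both inhibitors. Liver markers had summed intensities of 101260, 29375, 6505, 113196 and 1756, and fibroblast and matrix markers of 30126, 7790, 6886, 29470 and 1240. Both sums were lower than the control on the 3 inhibitor arrays. With insulin the median differences were 0.07 for the liver list and -0.21 for the fibroblast list. The part that these cell mixtures have in the differences was not tested. In bulk RNA, fewer cells of a type and less RNA per cell cannot be told apart. The skeletal muscle factors MYOD1, MYOG, MYF5 and MYF6 were not detected on any array. Of 13 skeletal muscle markers 1, ACTA1, was detected, and it differed from the control by -0.35 with IWP2, -1.26 with LY294002, 0.75 with insulin and -0.57 with both.

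The heat shock response, which HSF1 drives, was described on a list of 24 chaperone and cochaperone genes. The list mixes inducible genes with constitutive ones such as HSPA8 and HSP90AB1, so its medians do not describe the inducible genes alone. Of the 24, 22 were measured and 19 were detected on both arrays of each comparison with the control. At least 2-fold higher were 2 of the 19 with IWP2, 4 with LY294002, 1 with insulin and 5 with both inhibitors, where 6.94%, 9.02%, 1.71% and 12.0% of all genes were. At least 2-fold lower were 0, 2, 0 and 2 of the 19, against 7.7%, 10.2%, 1.88% and 10.9% of all genes. HSPA8 was among the genes counted as higher in each comparison, and was the only one with insulin. Its other bright probe, given below, stayed under 2-fold in each, so these counts depend on the probe. The medians were 0.13, 0.01, 0.08 and 0.22, and the LY294002 median turned to -0.06 under cyclic loess. The HSP70 gene HSPA1A read 8.59 in the control, 8.71 with IWP2, 8.42 with LY294002, 8.92 with insulin and 8.62 with both. HSPA1A and HSPA1B are near-identical, and their probes may read each other. HSPA6, a strictly stress-induced HSP70 gene, and HSF1 itself were not detected on any array. HSBP1, a binding protein of HSF1, read 10.10 in the control, 10.74 with IWP2, 10.78 with LY294002, 9.60 with insulin and 10.70 with both. Among other small heat shock genes, IFT25 (formerly HSPB11) was detected on all 5 arrays and differed from the control by -0.43 to 0.02, HSPB9 and ODF1 were detected on none, and the lens gene CRYAA was detected only with IWP2 (5.29).

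Single chaperones did stand apart. CHORDC1, an HSP90 cochaperone, was higher by 1.47 with IWP2, 1.35 with LY294002 and 1.83 with both inhibitors, though its second probe was not detected. HSP90AB1, the constitutive HSP90, differed by -1.31 with LY294002 and -1.30 with both. HSP90AA1, the inducible one, was higher by 1.24 with both, and a second bright probe gave 1.27, while a dimmer probe gave -0.80. The constitutive HSP70 gene HSPA8 was higher than the control on all 4 arrays on the probe used, by 1.26 to 1.53, but its other bright probe gave -0.03 with IWP2, 0.38 with LY294002, -0.26 with insulin and 0.30 with both, so no direction is given for HSPA8.

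HSPB8 and BAG3 act together in chaperone-assisted autophagy, in which damaged muscle proteins are tagged by the ligase STUB1 and removed. The levels of these genes did not run together. BAG3 read 7.94 in the control, 7.06 with IWP2, 7.55 with LY294002, 7.93 with insulin and 6.88 with both inhibitors. It was at or below the control on each treated array, with a difference of -1.06 for both inhibitors. HSPB8 was above the control on each after normalization. With LY294002 its raw intensity was lower (162) than in the control (181). STUB1 differed by -1.15 with IWP2 (-0.69 on its second probe), and the autophagy receptor SQSTM1 by -0.80 with IWP2 and -0.98 with both inhibitors. Over the 8 genes of that pathway detected, the median differences were -0.33 with IWP2, -0.17 with LY294002, 0.05 with insulin and -0.22 with both. With the mean over probes the medians for insulin and both turned to -0.14 and 0.22.

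The list of other muscle chaperones also held XIRP1 and MYPN, which are structural proteins. Some of its genes stood higher on the inhibitor arrays. UNC45B, which folds myosin, was higher by 2.23 with IWP2, 2.23 with LY294002 and 2.48 with both inhibitors. A dimmer UNC45B probe, detected on 2 arrays, gave 1.22, 0.53 and 1.09. SMYD1, a muscle methyltransferase that binds myosin and HSP90, was higher by 3.27, 3.01 and 4.02 and was not detected with insulin. XIRP1, an actin-binding repeat protein, was detected on the 3 inhibitor arrays only, at least 4.76-fold, 2.20-fold and 4.76-fold higher than the control. MYPN, a protein of the Z-disc and I-band, was detected with IWP2 and with both inhibitors but not with LY294002 alone. UNC45A, the form of UNC45 made in most tissues, differed by -0.21 with IWP2, 0.64 with LY294002 and 0.21 with both, and the cochaperone DNAJB6 by 0.10, 0.01 and -0.26. Of the 8 measured genes of that list 5 were detected on both arrays. At least 2-fold higher were 2 of these 5 with IWP2, 2 with LY294002 and 3 with both (all genes: 6.94%, 9.02% and 12.0%), and 0 were lower. The medians, over genes detected on at least 1 of the 2 arrays, were 1.69, 1.10 and 1.42. With IWP2 and with both inhibitors the median was the value of MYPN, which was not detected in the control.

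A further list held muscle genes taken as clients or partners of small heat shock proteins. Of these, ACTN2 (alpha-actinin of the Z-disc) was higher by 2.60 with IWP2, 1.71 with LY294002 and 2.13 with both inhibitors. CSRP3, a Z-disc sensor of stretch, was at least 3.36-fold, 7.26-fold and 3.77-fold higher. ACTC1, cardiac actin, differed by 1.20, 1.06 and 1.43. DES, which encodes the CRYAB client desmin, was detected only on the insulin array (6.05). TTN, the titin gene, was detected only with IWP2 (5.30) and with both inhibitors (5.85). The filamin gene FLNC was not measured. Each inhibitor treatment gave 2 of the 4 genes of this list that both arrays detected a level at least 2-fold above the control (all genes: 6.94%, 9.02% and 12.0%), and ACTA1 was lower with LY294002 (-1.26). VIM, the intermediate filament vimentin, differed by -0.57, -0.73 and -0.29.

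Regulators of heart muscle transcription were mixed. MEF2C was detected on the 3 inhibitor arrays only, at least 6.36-fold higher with IWP2, 4.11-fold with LY294002 and 6.52-fold with both. NKX2-5 was higher by 3.50, 3.21 and 2.81, and it was not detected with insulin. The coactivator PPARGC1A was higher by 2.96, 2.08 and 3.67. MYOCD, a cofactor of SRF in cardiac and smooth muscle, was detected only with both inhibitors (5.95), and SRF stayed between 8.26 and 9.02. Among the 6 regulators detected on both arrays, each inhibitor treatment gave 2 past 2-fold upwards (all genes: 6.94% with IWP2, 9.02% with LY294002 and 12.0% with both) and 0 downwards. GATA4 differed by 0.00 with IWP2, -0.10 with LY294002 and -0.17 with both, MEF2D by -0.02, -0.87 and -0.29, and HAND2, which acts in the right ventricle, by -0.27, 0.13 and -0.74. TBX5 and TBX20 were not detected on any array.

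**Figure D3:**
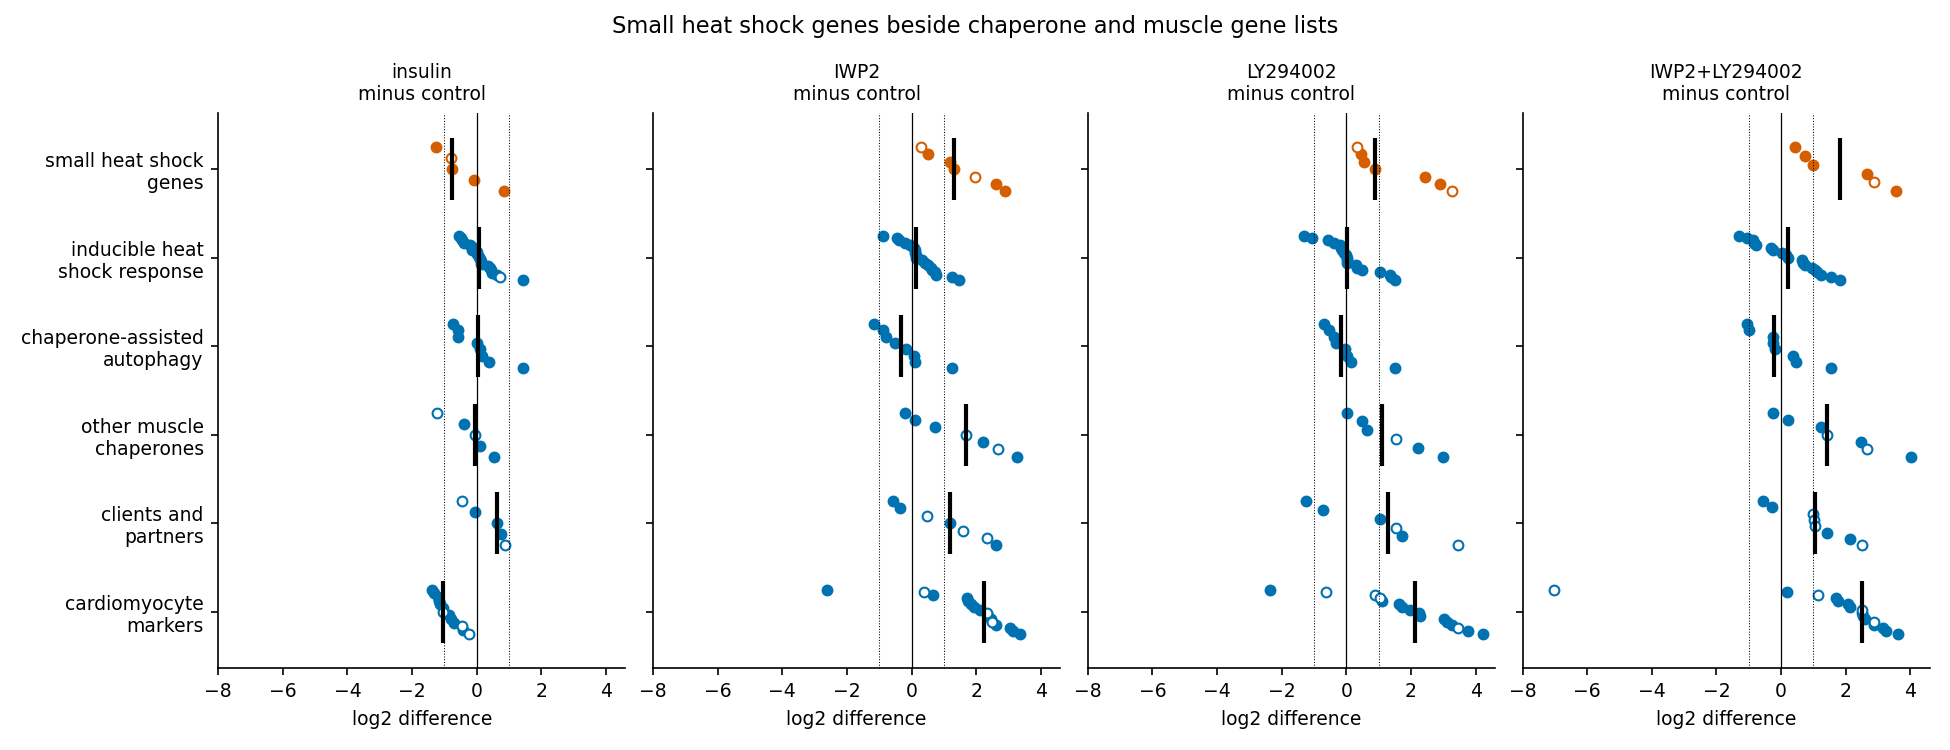
Log2 difference from the control array (horizontal axis) for each gene detected on at least 1 of the 2 arrays, in 6 gene lists (rows) and 4 treatments (panels). Open points were detected on 1 of the 2 arrays, thick lines are list medians and dotted lines mark 2-fold. The small heat shock genes and the cardiomyocyte markers lie mostly above 0 with the inhibitors and below 0 with insulin. The row of the inducible heat shock response, which also holds constitutive genes, centres near 0 (medians 0.01 to 0.22).

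The 2 inhibitors were set against each other without the control. LY294002 minus IWP2 gave 1.32 for HSPB2 (2.50-fold higher with LY294002), the only one of the 7 genes past 2-fold, though not without background correction, where it was 0.88 (all genes: 4.12% higher and 5.59% lower). HSPB8 differed by -0.86, 1.81-fold lower with LY294002, and passed 2-fold under 75th percentile scaling (-1.01). HSPB7 (0.02), HSPB6 (0.03), HSPB1 (0.05), HSPB3 (-0.20) and CRYAB (-0.32) lay close together on the 2 arrays. With LY294002 added to IWP2, 0 of the 6 genes detected on both arrays differed by 2-fold (all genes: 2.96% higher and 3.45% lower): HSPB3 differed by 0.94, HSPB2 by 0.94 and CRYAB by -0.75. IWP2 added to LY294002 gave 1.14 for HSPB3 (0.96 without background correction), the only one of 6 genes past 2-fold (all genes: 5.92% higher and 4.37% lower), 0.55 for HSPB8, -0.44 for CRYAB and -0.39 for HSPB2.

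For the 5 genes detected on the 4 arrays of control, IWP2, LY294002 and both, the difference for both inhibitors was smaller than the sum of the single differences. For HSPB7 the sum was 5.78 and the observed value 2.67, a 2 by 2 difference of -3.11, lower than in all but 0.124% of the 7271 genes detected on these arrays. CRYAB had -1.63, HSPB3 -1.48 (-0.65 without background correction), HSPB8 -0.76 and HSPB1 -0.32. Over all these genes the median was -0.03. Of 325 genes at least 2-fold higher with each inhibitor alone, HSPB7 and HSPB3 included, 99.1% had a negative value, with a median of -1.44 and 90% of values between -2.72 and -0.65. A negative value was thus common to nearly all such genes. The 11 cardiomyocyte markers among them had a median of -2.11, with 90% of values between -4.19 and -1.49. The HSPB7 value lay within that range of the 11 markers, but below the 90% range of the 325 genes. The control array enters both single differences, and choosing genes that are high against it favours a negative value. In the same 325 genes, the array of both inhibitors lay 0.05 below the higher single inhibitor at the median. HSPB7 lay 0.23 below it and HSPB3 0.94 above it.

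**Figure D4:**
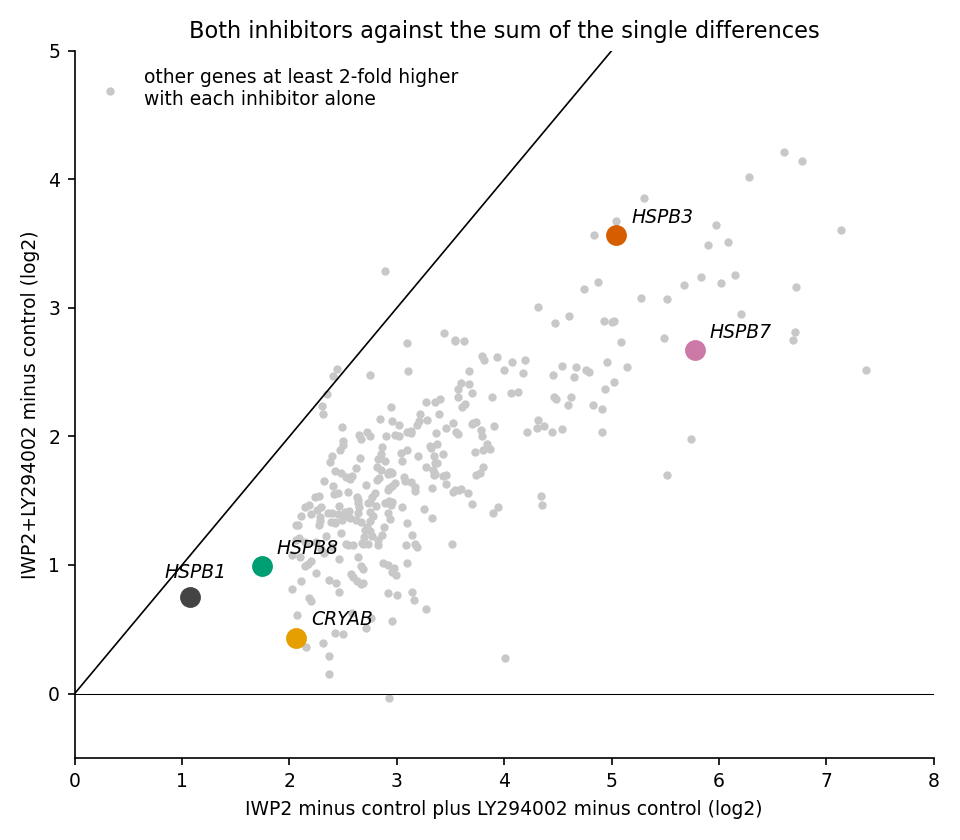
Log2 difference from the control with both inhibitors (vertical axis) against the sum of the 2 single-inhibitor differences (horizontal axis) for the 5 small heat shock genes detected on these 4 arrays (large points) and for the other genes at least 2-fold higher with each inhibitor alone (grey). The line marks equality, and all 5 genes lie below it, HSPB7 farthest (2.67 observed against a sum of 5.78).

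Likeness among the 7 genes was measured as the root mean square distance between 2 profiles over the 5 arrays, each centred on its own mean. HSPB3 and HSPB7 were 0.49 apart, HSPB2 and HSPB7 0.60, and HSPB2 and HSPB3 0.60, undetected values included. The flatter profiles also lay close to each other: HSPB1 and HSPB6, the closest of all pairs, were 0.37 apart, HSPB1 and HSPB8 0.42, HSPB1 and CRYAB 0.47, and HSPB6 and HSPB8 0.50. HSPB6 was detected on only 2 of the 5 arrays, so its distances rest mostly on undetected values. HSPB8 and CRYAB were 0.70 apart. HSPB7 stood 1.12 from CRYAB and 1.62 from HSPB8.

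Among 7090 other genes detected on all 5 arrays, the profile closest to HSPB7 was that of EEF1A2, the elongation factor isoform of muscle and neurons, at a distance of 0.15. It read 9.18 in the control, 11.94 with IWP2, 11.90 with LY294002, 8.17 with insulin and 11.94 with both. MYL3, a ventricular myosin light chain, and ENO3, the muscle enolase, followed at 0.20 each, and 4 genes in all lay within 0.25. CRYAB was closest to OXR1, an oxidation resistance gene (0.12), and to MRPS21, a mitochondrial ribosomal protein gene (0.12), with 34 genes within 0.25. HSPB8 was closest to the adhesion gene CADM1 (0.05), with 98 genes within 0.25. The flat profile of HSPB1 had 960 genes within 0.25, led by BTF3L4 (0.03), so its likeness singles out little. The mean profile of HSPB1, HSPB7, HSPB8 and CRYAB was closest to PPP1R13B (0.04) and to TMOD1, which caps thin filaments of muscle (0.06).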

How the data were processed

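The deposited scanner table holds, per the file headers, an intensity and a detection p-value for each of 47299 probes on each array. The intensities are not normalized, and the p-values move in steps of 1 in 770. A second deposited table holds the authors' log2 values. Its normalization method was not found in the labels or headers. Its columns have nearly equal medians (5.01 to 5.02) and each array's order of intensities, and it served as an alternative. Intensities were background-corrected by normexp from the detection p-values, quantile-normalized and log2-transformed with an offset of 16 (neqc, limma 3.58.1, R 4.3.3), then analysed in Python 3.11.15 with pandas 2.3.3, and the code was tested on simulated data. The platform annotation gave 30106 probes 1 symbol and 8 several, which were not named; symbols were updated by gene ID. The brightest probe stood for a gene. Groups follow the treatment label. Members and gene lists were chosen with earlier results of these data known. Genes named besides the members were the 3 nearest profiles and, per list and comparison, up to 4 of the largest differences, with others chosen after their values were seen. Of 166 list genes, 160 were measured. The number of arrays limits the precision.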

Additional observations from a re-analysis of the deposited data

Results flagged for a closer look

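CRYAB moved in opposite directions when LY294002 was added without and with IWP2. Without IWP2 the CRYAB difference was 0.87 on the log2 scale (LY294002 minus control), and with IWP2 it was -0.75 (both inhibitors minus IWP2), each from 1 array on either side. Neither CRYAB value passed 2-fold. The sign also changed for HSPB7 (2.90 and -0.21), HSPB8 (0.44 and -0.31) and HSPB6 (0.33 and -0.54). In each comparison HSPB6 was detected on only 1 of the 2 arrays. HSPB1, HSPB2 and HSPB3 had positive differences both without and with IWP2. The difference between these effects was not tested.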

How the results depend on the processing

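With 1 array per condition nothing bounds the error of a difference. In the inhibitor comparisons with the control, the differences of HSPB2 and HSPB3 moved most without background correction. HSPB6 lay near the limit of detection, and its differences were small with and without that correction. Each of 8 alternatives was run on all comparisons. No difference past 2-fold changed sign. Of 448 recomputed gene differences, 437 kept their side of the threshold. The 56 from the mean over probes could not change. Detection p under 0.05 and no detection filter left each log2 difference as it was and could change only which genes were counted. The 437 thus overstates how far the differences were tried. Without background correction, the genes at least 2-fold higher with IWP2 than the control numbered 2, not 4. Those lower with insulin numbered 0, as did those higher for both inhibitors minus LY294002 and for LY294002 minus IWP2, and the median for both inhibitors against the control was 1.06. That median was 0.99 with detection p under 0.05 and with no detection filter, as HSPB6 was then counted. Under 75th percentile scaling 1 gene, HSPB8, was at least 2-fold lower with LY294002 than with IWP2, and the split over all genes went from 329 higher and 446 lower to 266 and 583. That scaling put the median of all genes at -0.14 for LY294002 minus control. Cyclic loess, an offset of 50, the deposited value table and the mean over probes changed no count or median of the 7 genes past the limits used (1.5 times, or 0.58 for a median). Each gene has 1 probe, so the mean over probes could change none of them. Without background correction the genes higher with IWP2 over the whole array numbered 240, not 584. No paired analysis was possible because each condition has 1 array.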

Other observations

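Genes next to the small heat shock genes on the chromosome were taken from RefSeq (GRCh38.p14) by position after the values were seen. Of 11 measured protein-coding neighbours, 3 were detected on all 5 arrays, as were 7110 of the 20041 named genes. Another 6 were not detected on any array, among them SRARP beside HSPB7, SNX18 beside HSPB3, and CCDC60 and SRRM4 beside HSPB8. The share of all genes undetected on every array was not counted, so nothing is read from these 6. ARL15, also beside HSPB3, differed from the control by 0.37 with IWP2, 0.87 with LY294002, 0.04 with insulin and 0.37 with both inhibitors. YWHAG, beside HSPB1 on chromosome 7, differed from the control by -0.92 with IWP2, -1.13 with LY294002, -0.15 with insulin and -1.04 with both inhibitors, where HSPB1 differed by 0.51, 0.56, -0.09 and 0.75.

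HSPB2 and CRYAB lie side by side on chromosome 11 and their annotated spans overlap. Their levels ran in a different order over the inhibitor arrays: HSPB2 read 6.88 with IWP2 and 8.20 with LY294002, and CRYAB 8.69 and 8.37. CFAP68, on one side of the pair, read 8.47 in the control, 8.47 with IWP2, 9.67 with LY294002, 8.40 with insulin and 9.06 with both inhibitors, so that it was also higher with LY294002 than with IWP2. DIXDC1, on the other side, was detected on 3 arrays and read highest with both inhibitors (6.36).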
